A study of Mus musculus with 4 samples.

Results

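The miRNAs described here are 9 mature miRNAs of blood cells, chosen by name from the 1915 mature miRNAs listed in the count table of a study of beta-cell exosomes. The 5 erythroid members are mmu-miR-486a-5p, mmu-miR-486b-5p, mmu-miR-451a, mmu-miR-144-3p and mmu-miR-144-5p. The 4 white-cell members are mmu-miR-142a-3p, mmu-miR-142a-5p, mmu-miR-223-3p and mmu-miR-150-5p. The rule used their names and no threshold on a value, although earlier results of these data were known when it was set. A count was recorded for each of the 9 in at least one library. miR-486a-5p and miR-486b-5p carry identical counts in every library, so the 9 names stand for 8 distinct sets of counts, and miR-486 is counted once in all sums.

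Small RNA was sequenced from MIN6 cells, a mouse insulinoma line used as a model of the pancreatic beta cell, and from the exosomes (small secreted vesicles) that these cells released, with 2 libraries in each group. The cells grew in medium containing fetal bovine serum that had been depleted of exosomes, and the exosomes were pelleted from conditioned medium by ultracentrifugation after filtration. Both groups came from the same untreated line. The comparison asks how the miRNA content of the vesicles differs from that of the cells that made them.

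Mature red cells and their precursors hold miR-451a and miR-144, which lie side by side in one GATA1-driven gene cluster, and miR-486, which lies within an intron of the ankyrin gene Ank1. miR-142 is known as a miRNA of nearly all cells of the blood lineage, miR-223 as a miRNA of neutrophils and other myeloid cells, and miR-150 as a miRNA of mature lymphocytes. None of these miRNAs is known as a marker of the beta cell. All of them are commonly found in serum and plasma, and miR-451a and miR-486 are used there as signs of ruptured red cells.

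The RefSeq table for GRCm38.p6 held the mature sequences of 6 of the 9 members, and these are shown because a shared seed or a shared sequence would let reads of one miRNA be taken for another. Each is written 5′ to 3′, with the seed (bases 2 to 8, which pair with target mRNAs) in capitals.
mmu-miR-451a: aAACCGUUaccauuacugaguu
mmu-miR-144-3p: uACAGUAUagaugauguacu
mmu-miR-144-5p: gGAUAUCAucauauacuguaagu
mmu-miR-142a-3p: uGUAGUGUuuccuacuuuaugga
mmu-miR-142a-5p: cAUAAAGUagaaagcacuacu
mmu-miR-223-3p: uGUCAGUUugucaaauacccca
The 6 seeds differed from one another, and no other of the 1623 listed miRNAs that the RefSeq table holds carried any of them. The mature sequences of all 9 members were also searched, on the sense strand and without mismatch, in 141767 transcripts of the GENCODE M21 annotation. No match was found outside the members' own miRNA genes and, for miR-223-3p, the transcript F630028O10Rik that contains it.

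The hairpins that give the members of the blood-cell clusters show how the arms are laid out. They are written 5′ to 3′ with the annotated mature arms in capitals.
Mir451a: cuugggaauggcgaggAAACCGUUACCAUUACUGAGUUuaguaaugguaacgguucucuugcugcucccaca
Mir144: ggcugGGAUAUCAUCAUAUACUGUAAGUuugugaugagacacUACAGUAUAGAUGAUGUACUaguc
Mir142: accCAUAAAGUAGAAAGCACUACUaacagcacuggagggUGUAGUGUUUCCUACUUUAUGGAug
Mir144 and Mir142 each hold a 5p and a 3p arm separated by a loop. Mir451a holds a single annotated product, which starts at base 17 and ends at base 38 of the 72 bases and so runs past the midpoint of the hairpin. This shape belongs to a processing route that is known to need Argonaute2 in place of Dicer.

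In GRCm38, Mir144 lies at chr11:78073005-78073070 and Mir451a at chr11:78073170-78073241, both on the plus strand with 99 bases between them. The annotation places no other gene over Mir144, and places Mir451b over Mir451a on the opposite strand. Mir142 lies at chr11:87756864-87756927 on the plus strand, in an intron of the non-coding gene Mir142hg and opposite Mir142b. Mir223 lies at chrX:96242817-96242926 on the plus strand, in an exon of F630028O10Rik. Mir150 lies at chr7:45121757-45121821 on the plus strand with no gene over it. miR-486a and miR-486b come from the overlapping genes Mir486 and Mir3107 on opposite strands of chromosome 8.

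The groups differed far more in depth than in number. The exosome libraries held 47447 and 31409 mature miRNA counts, and the libraries of cells 2930217 and 2564068. Counts are given as deposited, and levels as RPM, the count per 1000000 mature counts of the library. A result of 0 counts therefore allows a level of up to 1.02 and 1.17 RPM in the cells but up to 63.2 and 95.5 RPM in the exosomes, taking 3 counts as the limit that 0 allows. These limits and the intervals below cover counting error only, since PCR copies were not told apart. The exosome libraries also stood further from each other than the cell libraries did, with a chi-square per degree of freedom of 58.2 against 19.5, so exosome values are given for each library. Nothing in the labels says that the 2 libraries of a group came from separate cultures, and p-values then measure only the spread between these libraries, which may be technical. The quality of the cell and exosome libraries was read on different instruments, which cannot be told apart from the group.

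The labelled cell type was checked first. The 11 miRNAs of a beta-cell and epithelial list, among them miR-375-3p and miR-7a-5p, were counted in both cell libraries and held 6.75% and 6.73% of mature counts there. The exocrine pancreas miRNAs miR-216a-5p and miR-217-5p were at 0 in all 4 libraries.

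The blood-cell miRNAs were at or near 0 in the MIN6 cells and were present in the exosomes. The 4 distinct erythroid members together gave 3 and 5 counts in MIN6 libraries, and 284 and 35 counts in the far shallower exosome libraries. The 4 white-cell members together were counted 5 times in each cell library, against 128 and 43 in exosomes. As shares of all mature counts, the erythroid members held 0.000102% and 0.000195% of the cell libraries, and 0.599% (95% Wilson interval 0.533 to 0.672) and 0.111% (0.0801 to 0.155) of the exosome libraries. The white-cell members held 0.000171% and 0.000195% of the cell libraries, and 0.270% (0.227 to 0.321) and 0.137% (0.102 to 0.184) of the exosome libraries. The mean share was 2387 times as high in exosomes as in cells for the erythroid members and 1112 times as high for the white-cell members. Leaving out exosome replicate 1 put the erythroid ratio at 749, and leaving out replicate 2 put it at 4026. With let-7 and miR-98 left out of the totals, the ratios were 1236 for the erythroid and 539 for the white-cell members. All these values are shares of a library, so a gain of these miRNAs and a loss of other miRNAs in the vesicles cannot be told apart.

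**Figure D1:**
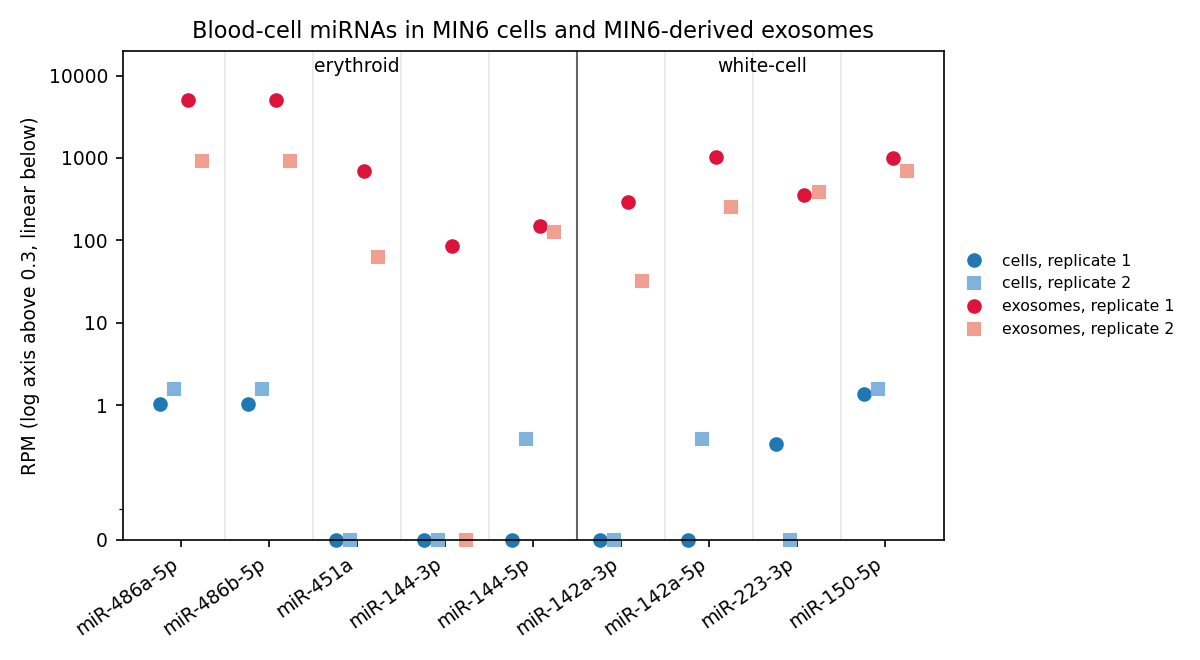
The level of each member in RPM is plotted for each library, with cells in blue and exosomes in red, on an axis that is logarithmic above 0.3 and linear below. No cell library exceeds 1.56 RPM, and the exosome libraries reach 5058 RPM, except that miR-144-3p is at 0 in exosome replicate 2.

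Among the erythroid members, miR-486, a miRNA of red-cell precursors and muscle, was the most abundant. The cell libraries held 3 and 4 counts of it (1.02 and 1.56 RPM), whereas the exosome libraries held 240 and 29 (5058 and 923 RPM). The groups did not overlap, although the exosome libraries differed widely. At the level measured in the cells, the exosome libraries would be expected to hold 0.0605 and 0.0400 counts. With counts scaled by TMM (trimmed mean of M-values) factors, miR-486 measured 2.05 ± 0.704 counts per 1000000 scaled counts (CPM) in cells and 1753 ± 1523 in exosomes (SD, n = 2 each). The fitted difference was 9.68 on the log2 scale (SE 1.14, worked back from the test statistic). Its Benjamini-Hochberg adjusted p was 0.00715 by edgeR's quasi-likelihood test. Every member that passed the filter on low counts, miR-486 included, could pass it only through the exosomes. The adjusted p given for these members, here and in the following paragraphs, therefore carries no weight of its own.

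miR-451a, which is needed for the survival of red cells under oxidative stress, was at 0 in both cell libraries. Exosome replicate 1 held 33 counts (696 RPM) and replicate 2 held 2 counts (63.7 RPM). The second exosome library was therefore below the 3 counts that a count of 0 allows, and the signal came almost entirely from the first. Against 3 counts in each cell library, the mean scaled level was 126-fold higher in exosomes, with an adjusted p of 0.0205 by the same test. This fold is a limit for the cell side only, since the exosome mean was itself 218 ± 242 CPM (SD, n = 2).

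miR-144, transcribed with miR-451a, gave the lowest mean exosome levels of the members, and neither of its arms passed the filter on low counts. Its 3p arm, the main strand in red cells, was at 0 in both cell libraries, and of the exosome libraries the first held 4 counts and the second 0, so that the groups overlapped at 0. Its 5p arm had 1 count in cell replicate 2 and 0 in replicate 1, and 7 and 4 counts in exosomes, where it reached 148 and 127 RPM. The 5p groups did not overlap, and the ratio of summed scaled counts was 301 with a 95% Clopper-Pearson interval of 43.8 to 12975. When every miRNA with a count was tested by edgeR's quasi-likelihood test without a filter, both arms passed, with adjusted p of 0.0392 for miR-144-3p and 0.00288 for miR-144-5p. The result for miR-144-3p rested on the 4 counts of exosome replicate 1 alone and so carries little weight.

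Among the white-cell members, miR-150-5p, a regulator of the factor Myb in lymphocytes, was the most abundant. Each cell library held 4 counts (1.37 and 1.56 RPM), against 48 and 22 in exosomes (1012 and 700 RPM). Scaled levels were 2.31 ± 0.338 CPM in cells and 539 ± 37.9 CPM in exosomes (SD, n = 2 each). The exosome level thus varied far less between libraries than that of miR-486, and the groups lay far apart. The fitted difference was 7.80 on the log2 scale (SE 0.460, worked back from the test statistic). Its adjusted p was 0.00650 by edgeR's quasi-likelihood test.

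miR-223-3p, which restrains neutrophil production and activation, had 1 count in cell replicate 1 and 0 in replicate 2, against 17 and 12 in exosomes. The exosome levels of 358 and 382 RPM were the closest pair by RPM of any member that passed the filter, whereas by scaled CPM those of miR-150-5p were closer. The ratio of summed scaled counts was 795 (95% interval 132 to 32459), and the adjusted p was 0.00650.

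Both arms of miR-142a, which is required for the development of several blood lineages, were found in the exosomes. miR-142a-5p had 1 count in cell replicate 2 and 0 in replicate 1, against 49 and 8 in exosomes (1033 and 255 RPM), a ratio of summed scaled counts of 1562 (95% interval 269 to 62767) with an adjusted p of 0.00715. miR-142a-3p was at 0 in both cell libraries and had 14 and 1 counts in exosomes (295 and 31.8 RPM). Neither arm overlapped between the groups, but the single count of miR-142a-3p in the second exosome library is below the 3-count limit. Against 3 counts in each cell library its mean scaled level was 54.4-fold higher in exosomes, with an adjusted p of 0.0194. Here too the limit is for the cell side only, and the exosome mean was 94.2 ± 100 CPM (SD, n = 2).

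The order of mean exosome levels was miR-486 (2991 RPM), miR-150-5p (856), miR-142a-5p (644), miR-451a (380), miR-223-3p (370), miR-142a-3p (163), miR-144-5p (137) and miR-144-3p (42.2). Of neighbours in this order, the ranges did not overlap for miR-223-3p over miR-142a-3p and for miR-144-5p over miR-144-3p. The ranges of miR-486 and miR-150-5p overlapped, as did those of miR-142a-5p and miR-451a, but the first of each pair was higher within both exosome libraries. The other neighbours changed order between the libraries. Among all listed miRNAs, miR-486 ranked 28 and 66 by RPM in the exosome libraries and miR-150-5p ranked 74 and 81.

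All 7 members that passed the filter were called higher in exosomes, where 23.7% of the 438 tested miRNAs were called higher and 29.5% lower at an adjusted p under 0.05. This count carries no weight of its own, because none of the 7 had more than 4 counts in a cell library. The filter sets its minimum of 10 counts at the median library size and applies it as a level. In a shallow library fewer counts therefore suffice. The 7 members could pass the filter only through the exosomes and so had to differ. Of the 45 tested miRNAs under 10 counts in both cell libraries, 42 were called higher. For 33.3% of tested miRNAs the lower of the exosome libraries exceeded the higher of the cell libraries by scaled CPM. With the threshold of the study's own statistics (edgeR's exactTest at p under 0.05 before adjustment, with a fold of 2 or more), 27.4% of tested miRNAs were higher and so were the 7 members. With either cell library left out and the same 438 miRNAs tested, where the lone cell library is assumed to vary as the exosome libraries do, no miRNA was called by edgeR's quasi-likelihood test, while 159 and 143 miRNAs, the 7 members among them, had an unadjusted p under 0.05. The fitted log2 difference of miR-486 was then 9.31 and 9.99. With the filter applied again to the 3 libraries, a choice made after seeing the data, the 7 members were called (adjusted p up to 0.0160 and 0.0147). Without exosome replicate 1, miR-451a and miR-142a-3p were no longer called.

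**Figure D2:**
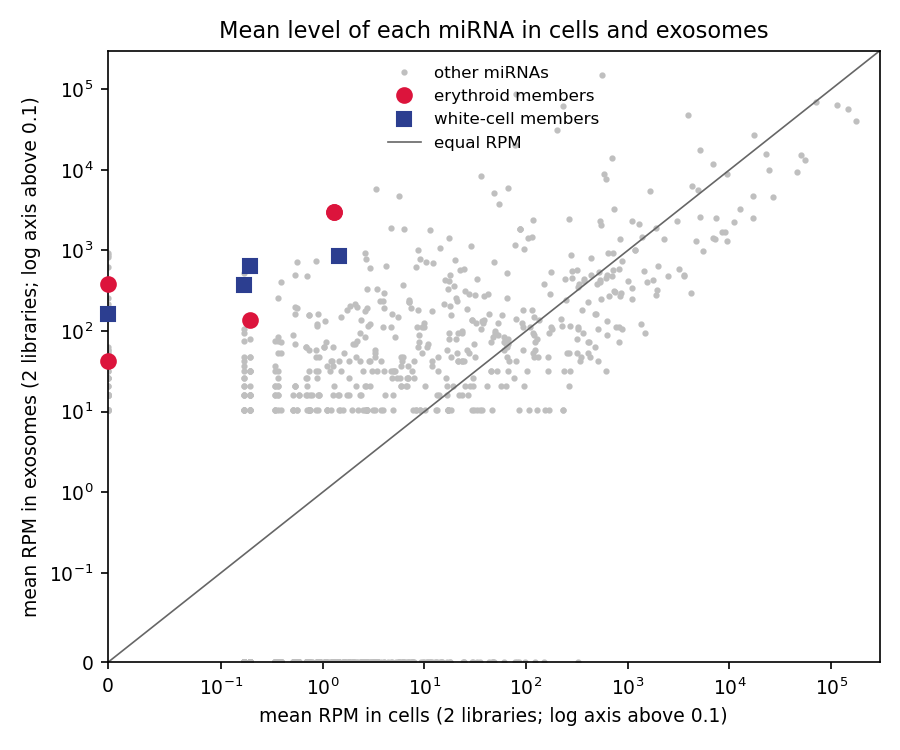
The mean RPM of each miRNA with a count is plotted for cells (horizontal) and exosomes (vertical), on axes that are logarithmic above 0.1 and linear below, with a line of equal RPM. The 8 distinct members lie at the left edge, between 0 and 1.46 RPM in cells, and between 42.2 and 2991 RPM in exosomes, among other miRNAs of like position.

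The other arms and close paralogues of the members were not detected among the mature counts. miR-486a-3p, miR-486b-3p, miR-451b, miR-142b, miR-223-5p and miR-150-3p were at 0 in all 4 libraries. Beside 269 exosome counts of miR-486-5p, a count of 0 allows the 3p arm up to 1.12% of the counts of both arms. The limit was 4.29% for miR-150-3p beside 70 counts and 10.3% for miR-223-5p beside 29 counts. For miR-142a, by contrast, both arms were counted, and the 5p arm held 57 of 72 exosome counts, or 79.2% (95% Wilson interval 68.4 to 86.9). It held the larger part in each library, with 77.8% (66.1 to 86.3) and 88.9% (56.5 to 98.0). For miR-144 the 5p arm held 11 of 15 exosome counts, or 73.3% (48.0 to 89.1), an interval that includes equal use of the arms.

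The counts per hairpin equalled the mature counts for miR-150, miR-223 and miR-144. For mir-142a, 1 read of the second exosome library lay on neither annotated arm. The same held for the hairpin mir-142b, and whether both are the same read is not known. For miR-486, 228 reads of exosome replicate 1 were placed on mir-486a and 234 on mir-486b, against a mature count of 240, so most reads were placed on both. If the mature count is the number of distinct reads on either hairpin, 222 reads were shared, 6 were placed on mir-486a alone and 12 on mir-486b alone. The 2 genes could not be told apart by these reads.

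Between the exosome libraries, miR-486, miR-451a and both arms of miR-142a differed by more than counting error. The RPM in exosome replicate 1 was 5.48 times that in replicate 2 for miR-486 (95% Clopper-Pearson interval 3.72 to 8.36) and 10.9 times for miR-451a (2.79 to 94.0). It was 4.05 times for miR-142a-5p (1.90 to 9.91) and 9.27 times for miR-142a-3p (1.41 to 392). The ratios were near 1 for miR-223-3p (0.938, 0.422 to 2.15), miR-150-5p (1.44, 0.855 to 2.51) and miR-144-5p (1.16, 0.295 to 5.40). The intervals of these last 3 include 1, and the difference between members was not tested.

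Over the 306 tested miRNAs counted in both exosome libraries, the median of this ratio was 1.41 and the quartiles were 0.662 and 3.31. The ratio was above that of miR-486 for 43 of them and above that of miR-451a for 13. Erythroid counts made up 284 of the 412 member counts in exosome replicate 1, or 68.9% (95% Wilson interval 64.3 to 73.2), and 35 of 78 in replicate 2, or 44.9% (34.3 to 55.9). These intervals do not overlap, but they cover counting error only. Most of the erythroid counts were miR-486 alone, with 240 of the 284 in replicate 1 and 29 of the 35 in replicate 2. The beta-cell and epithelial list was also higher in exosome replicate 1, with 3.51% of mature counts against 1.47% in replicate 2, and its part in the difference was not tested.

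**Figure D3:**
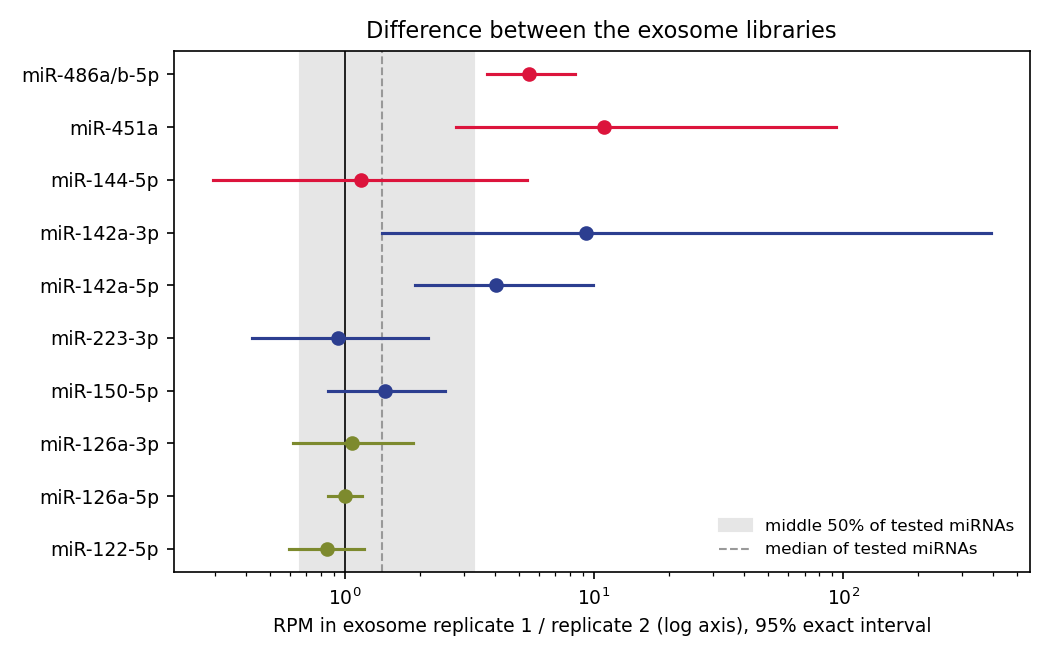
The ratio of RPM in exosome replicate 1 to replicate 2 is plotted on a log axis with 95% exact intervals, in red for erythroid members, blue for white-cell members and green for miR-126a and miR-122-5p. The shaded band spans the quartiles over tested miRNAs (0.662 to 3.31), with the dashed line at the median of 1.41; miR-486, miR-451a and both miR-142a arms lie beyond the band, and the others inside it.

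Other lists of miRNAs were set beside the members. Among the 7 red-cell miRNAs that other tissues also hold, 6 were tested, of which 1 was higher in exosomes, 2 were lower and 3 were not called, with a median log2 difference of -1.28 against -0.75 over all tested miRNAs. Over all tested miRNAs 23.7% were higher and 29.5% lower, which is near the shares of this list. By exactTest at the study's threshold 1 was higher and 3 lower, beside 120 higher and 166 lower of all 438 tested. miR-92a-3p, an abundant red-cell miRNA, rose from 42 and 22 counts in MIN6 libraries to 137 and 21 in the much shallower exosome libraries (log2 difference 5.88, adjusted p 0.0103). miR-25-3p fell by 3.13 on the log2 scale (adjusted p 0.0344). miR-15b-5p went from 409 and 319 counts in MIN6 libraries to 3 and 1 from exosomes (adjusted p 0.0143 by edgeR's quasi-likelihood test). Against 3 counts in each exosome library, its mean scaled level in cells was 3.94-fold higher, which is a bound and not a fitted fold. miR-16-5p, among the most abundant miRNAs of red cells, had 798 and 542 counts in MIN6 libraries against 39 and 2 from exosomes, and its log2 difference of -0.49 did not pass (adjusted p 0.661).

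Of 10 immune-cell miRNAs that other tissues also hold, 8 were tested, and 0 were higher, 2 lower and 6 not called by edgeR's quasi-likelihood test (median log2 difference -1.72). The lower calls were near the 29.5% called lower over all tested miRNAs. Before adjustment 0 were higher and 4 lower, as they were by DESeq2 and exactTest. Of all 438 tested miRNAs, 275 passed before adjustment in either direction. DESeq2 called 116 of the 438 higher and 134 lower after adjustment, and exactTest at the study's threshold 120 higher and 166 lower. The 2 that fell were miR-21a-5p, by 2.12 (adjusted p 0.0260), and miR-29a-3p, by 3.21 (adjusted p 0.0158). miR-155-5p, induced in activated immune cells, and miR-511-3p of macrophages were at 0 in all 4 libraries. In sum these lists were abundant in the MIN6 cells themselves, where the red-cell list held 4.94% and 5.53% of mature counts and the immune list 2.79% and 3.16%. Most of the red-cell sum was miR-25-3p alone (4.72% and 5.33%), and most of the immune sum was miR-342-3p alone (2.15% and 2.45%).

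miR-126a of platelets and endothelium rose on both arms. Its 5p arm went from 100 and 99 counts in MIN6 libraries to 403 and 266 from exosomes (log2 difference 6.57, adjusted p 0.00650), and its 3p arm from 44 and 64 to 37 and 23 (3.92, adjusted p 0.00818). miR-122-5p, the main miRNA of hepatocytes, went from 13 and 21 counts to 79 and 62 (6.87, adjusted p 0.00650). The other liver miRNAs tested, miR-192-5p and miR-194-5p, had log2 differences of -0.61 and -0.81 and were not called, so that the median of the 3 tested liver miRNAs was -0.61. Unlike miR-486, miR-126a-5p and miR-122-5p were level between the exosome libraries, with ratios of 1.00 (0.857 to 1.18) and 0.843 (0.597 to 1.20). The part that platelet, endothelial or liver RNA has in the values of the members was not tested.

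The beta-cell and epithelial list went the other way, with 0 of 11 higher in exosomes, 8 lower and 3 not called (median log2 difference -3.65) by edgeR's quasi-likelihood test, beside 23.7% higher and 29.5% lower over all tested miRNAs. Before adjustment 0 were higher and 9 lower, as they were by DESeq2 and exactTest. Of all 438 tested miRNAs, 275 passed before adjustment in either direction. DESeq2 called 116 of the 438 higher and 134 lower after adjustment, and exactTest at the study's threshold 120 higher and 166 lower. The scaling bears on all these values. TMM scaling put the median tested miRNA at -0.75, and scaling by library size alone put it at 0.61. Of all calls, 44.6% were in the direction of exosomes under TMM, 57.6% under upper-quartile factors and 82.0% when only library size was used.

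**Figure D4:**
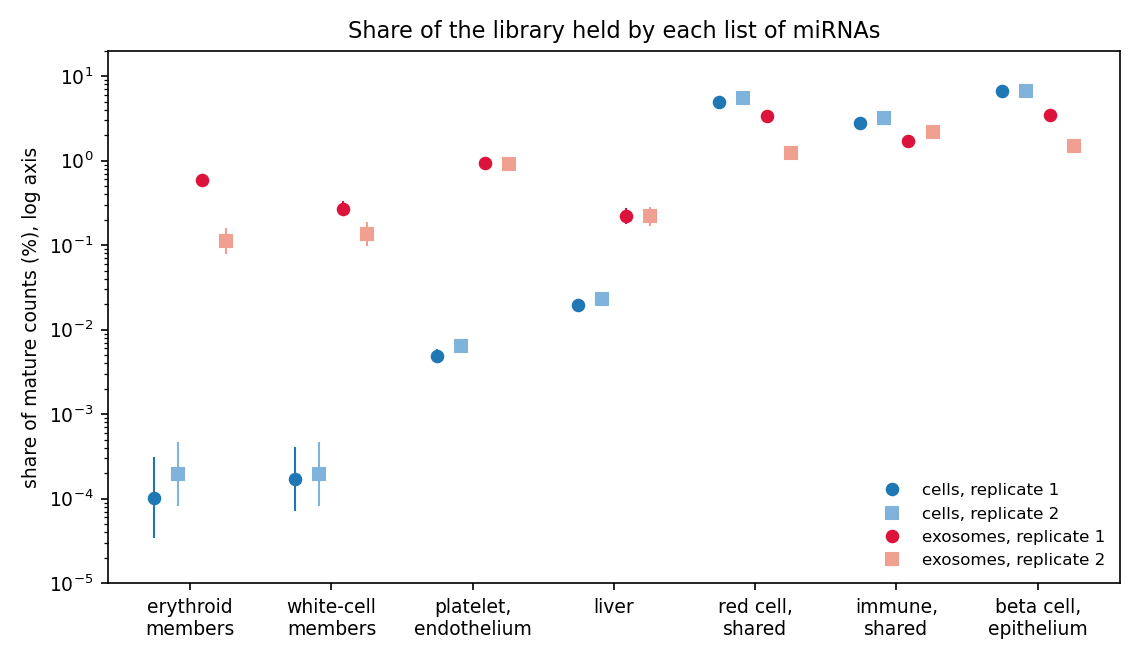
The share of mature counts in percent (log axis) is plotted for each list and library, with 95% Wilson intervals. Erythroid and white-cell members lie near 0.0001% to 0.0002% in cells and at 0.111% to 0.599% in exosomes. The summed platelet and liver lists are higher in exosomes from a larger base in cells, and the last 3 lists are lower in sum. In cells the red-cell sum is mostly miR-25-3p and the immune sum mostly miR-342-3p.

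The tested miRNAs nearest to each member were found by the Euclidean distance of log2 CPM over the 4 libraries. For miR-486 the nearest was another member, miR-150-5p, at 2.36 log2 units, followed by miR-692 (2.75) and miR-122-5p (2.87), so no miRNA lay close to it. miR-451a was nearest to miR-5108 (1.36), miR-19b-3p (1.38) and miR-142a-3p (1.54). miR-142a-3p was nearest to miR-770-3p (0.665). miR-142a-5p was nearest to miR-17-5p (0.672), with 1 and 0 counts in cells against 36 and 9 in exosomes. miR-223-3p was nearest to miR-214-3p (0.823), a miRNA of mesenchymal cells, with 0 and 2 counts in cells against 22 and 11 in exosomes. miR-150-5p was nearest to miR-1187 (0.693). With counts this low in the cells, these distances were set mostly by the exosome libraries.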

How the data were processed

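Small RNA libraries of 2 MIN6 cell and 2 exosome samples were made with a polyadenylation-based kit. The authors trimmed and mapped reads to mm10 with tools that the submitters' notes name as cutadapt, Bowtie, STAR, RSEM and Bowtie2, and deposited raw read counts and RPM per mature miRNA (miRBase 21), together with tables per hairpin whose arm columns hold other values, reads per annotated arm. Only the deposited counts were tested. The RPM values are those deposited, after a check against the counts. The 9 members and all lists were chosen with earlier results of these data known. Named miRNAs were the members, their other arms and paralogues, the lists, and the 3 nearest tested miRNAs of each member.

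Counts were filtered with filterByExpr (minimum count 10, 438 of 1101 miRNAs kept), scaled by TMM and tested in R 4.3.3 with edgeR 4.0.16 (glmQLFit, glmQLFTest) and Benjamini-Hochberg adjustment over all 438, called at 0.05. A miRNA with at most 3 counts in each library of a group was given a bound against 3 counts per library, or a ratio of summed counts with its interval. The SE of a log2 difference was that difference divided by the square root of the quasi-likelihood F statistic, not an output of the fit. Intervals are 95% (scipy 1.17.1). With 2 libraries a group, an exact permutation test cannot go below p = 0.333 (two-sided). Alternatives were DESeq2 1.42.0, exactTest, RLE, upper-quartile and library-size scaling, other filters, the replicate number as a block, identical sequences counted once, abundant miRNAs left out and each library left out. Coordinates and sequences come from GENCODE M21 and RefSeq on GRCm38, the same build as mm10. No column was left unmatched.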

Additional observations from a re-analysis of the deposited data

Results flagged for a closer look

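Reads on neither annotated arm of the mir-451a hairpin were found in data outside the mature counts. They numbered 2 of 35 reads on this hairpin in exosome replicate 1 and 4 of 6 in exosome replicate 2, and the hairpin was not listed in either cell library. In the second exosome library they outnumbered the 2 reads of mature miR-451a. They are reads of the same hairpin that the count of miR-451a leaves out, and their position and sequence were not analysed here.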

How the results depend on the processing

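Over the libraries left out in turn, calls higher in exosomes ran from 0 to 124 (104 with all libraries), calls lower from 0 to 168 (129), and members called from 0 to 7 (7). The zeros came without cell replicate 1 or 2, where the smallest adjusted p by edgeR's quasi-likelihood test were 0.0645 and 0.0665, and 159 and 143 miRNAs had an unadjusted p under 0.05. With the filter applied again to the 3 libraries, a choice made after seeing the data, these fits gave 51 higher and 70 lower, and 46 higher and 56 lower, with all 7 members called. Without exosome replicate 1, 5 members were called, and the largest member adjusted p was 0.215. With at least 10 counts in every library, 37 were higher and 40 lower and no member could be tested. Without a filter 202 were lower, and with library size alone 30. Leaving let-7 and miR-98 out of the totals moved the white-cell ratio of shares from 1112 to 539. That ratio ran from 749 to 1476 and the erythroid ratio from 749 to 4026 over libraries left out. The members lost their calls without cell replicate 1 or 2, and miR-451a and miR-142a-3p also without exosome replicate 1. Since the tested members had to differ by the filter, their direction under other settings carries no weight. The log2 difference ran from 8.27 to 11.10 for miR-486 and from 6.50 to 9.13 for miR-150-5p, and adjusted p reached 0.0665 for both.

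The replicate numbers are shared by cells and exosomes but nothing says that they pair the samples (correlation of same-numbered deviations 0.194). With the replicate number as a block, 117 miRNAs were higher and 109 lower, and 7 members were called.

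Depth limits the values: a member count in the second exosome library was at most 29, and the cells gave at most 4.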

Other observations

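miR-17-5p and miR-19b-3p, products of a cluster known as an oncogenic driver in blood cancers, were each among the 3 nearest tested miRNAs of a member, miR-17-5p of miR-142a-5p and miR-19b-3p of miR-451a. miR-17-5p had 36 and 9 counts in exosomes against 1 and 0 in cells, and miR-19b-3p had 18 and 4 against 1 in each cell library. miR-92a-3p of the same cluster had 42 and 22 counts in cells, while miR-25-3p, which shares the seed of miR-92a-3p, had 138198 and 136649 there and 1162 and 188 in exosomes. miR-92a-3p thus stood higher and miR-25-3p lower in exosomes, and the cause was not tested. Other miRNAs with this seed were not compared here.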
